A study of Mus musculus with 4 samples.

Results

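Cell cycle and mitosis genes were followed in the hippocampus of GFAP-ARO-KO mice and FLOX control mice after global cerebral ischemia. The set held 47 genes, chosen by symbol for their known function from the 22609 gene symbols in the count files, and all 47 were found there. They comprise 8 cyclins, 4 cyclin-dependent kinases (CDKs), 4 genes of the E2F and retinoblastoma family, 9 of replication licensing and the replication fork, 3 of deoxynucleotide synthesis, 5 mitotic kinases and chromosomal passengers, 6 of the spindle checkpoint and anaphase, 6 spindle motors and microtubule proteins, and the proliferation marker Mki67 with Top2a.

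Libraries came from 2 GFAP-ARO-KO samples and 2 FLOX control samples of whole hippocampus. In GFAP-ARO-KO mice, Cre driven by the Gfap promoter removes the floxed gene Cyp19a1, which encodes aromatase, the estrogen-producing enzyme; the labels describe this Cre as active in astrocytes alone. As background, the Gfap promoter is also active in the stem cells of the adult dentate gyrus. All animals were ovariectomized females, operated 1 week before both common carotid arteries were closed for 20 min, and the tissue was taken after 24 h of reperfusion. There was no sham group, and the sources used here give neither strain nor age. The labels do not say whether the samples of a group came from separate animals, so the p-values measure the spread between these samples, which may be technical.

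Reads assigned to genes numbered 34878375 and 27930696 in the GFAP-ARO-KO libraries and 33495548 and 33235564 in the FLOX control libraries. Levels are given as CPM, the reads of a gene scaled to a common library total with TMM factors, and a count of 0 in a library allowed a level of up to 0.0854 to 0.106 CPM, covering counting error only. Cyp19a1 gave 1 and 9 reads in the knockouts and 3 and 2 in the controls, too few to check the genotype labels. The neuronal gene Camk2a, at 4670 and 4660 CPM in the knockouts and 4950 and 5650 CPM in the controls, and the hippocampal marker Fibcd1, at 223 and 248 CPM in the knockouts and 219 and 312 CPM in the controls, were abundant in all 4 libraries.

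Progress through the cell cycle is driven by CDKs bound to cyclins. D-type cyclins with Cdk4 or Cdk6 phosphorylate the retinoblastoma protein in G1, which frees E2F factors to switch on genes of DNA replication such as the MCM helicase, cyclin E and ribonucleotide reductase. Later, cyclin B with Cdk1 starts mitosis, and the spindle checkpoint holds back anaphase until all chromosomes are attached. Most cells of the adult hippocampus are neurons that no longer divide; dividing cells are mainly progenitors of the dentate gyrus, oligodendrocyte precursors and, after injury, microglia and other glia.

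In GFAP-ARO-KO hippocampus, 9 of the 42 genes that could be tested rose and 1 fell (adjusted p under 0.05), while 32 did not pass. Over all 15011 genes tested, 20.4% passed, 9.39% as higher and 11.0% as lower. The rising genes were Ccne2, E2f1, Mcm6, Mcm7, Pcna and Rrm2, which act in the entry into and the course of DNA replication, and Bub1b, Nusap1 and Kpna2, which act in mitosis. The falling gene was Ccnd2, a D-type cyclin. Mki67 and Top2a, commonly used to detect dividing cells, did not pass.

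The median log2 fold change was 0.31 over the 42 tested cell cycle genes and 0.00 over all tested genes. Of the 42, 38 reached the minimum count in libraries of both genotypes, Bub1b, Hmmr and Kpna2 in the knockouts only and Ccnb2 in the controls only; a gene that enters the test through 1 group had to differ, so these numbers describe the tested genes and are not evidence for the set. With no filter on low counts all 47 were tested, and again 9 rose and 1 fell; 34 had a log2 fold change above 0 and 13 below, with a median of 0.30, against 0.03 over all 18260 genes. Both knockout values lay above both control values for 23 of the 42 and below for 6, where 32.0% and 32.8% of all tested genes did so. Only 4 of the 9 rises passed without the first FLOX control library, and 4 without the second, when the calls over all genes dropped to 901 and 813.

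**Figure D1:**
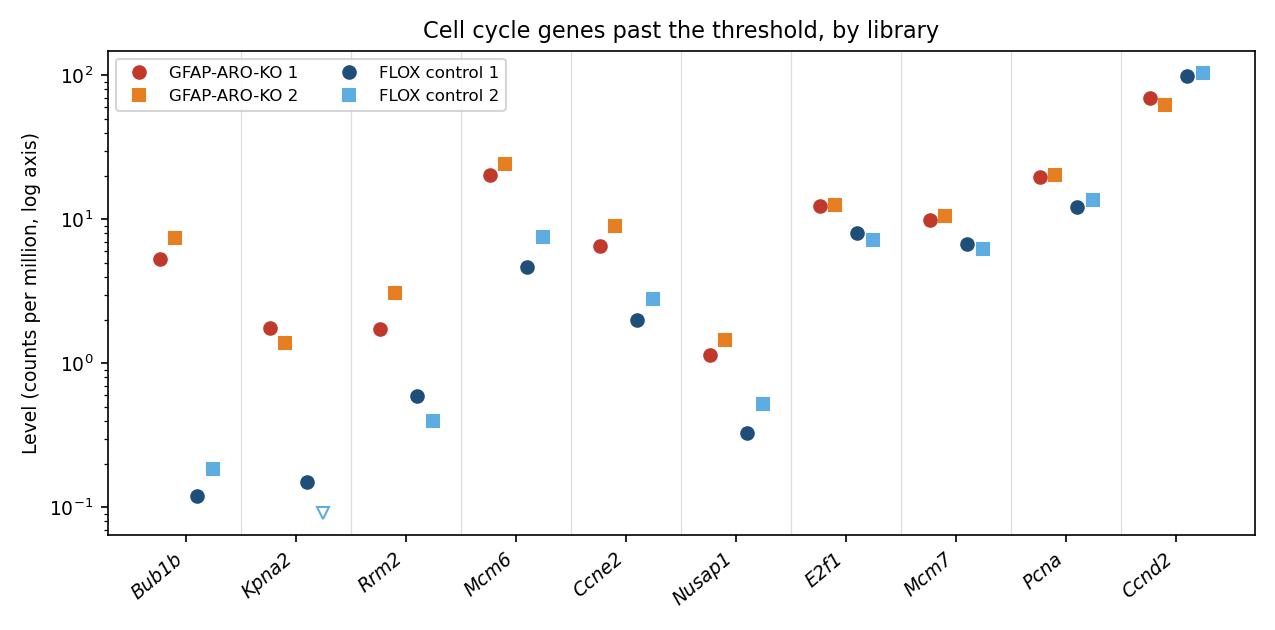
Levels in CPM (log axis) of the 10 cell cycle genes past the threshold, 1 point for each library, ordered by log2 fold change. The open triangle for Kpna2 marks a library with 0 reads, drawn at the level that a count of 0 allows. Both GFAP-ARO-KO points lie above both FLOX control points for 9 genes and below them for Ccnd2.

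Among the cyclins, Ccne2 rose, Ccnd2 fell, 5 did not pass and Ccnb1 could not be tested. Ccne2, a cyclin E that activates Cdk2 at the start of S phase (chromosome 4, 11118498 to 11131926, plus strand, mm9), was at 6.49 and 9.04 CPM in the knockouts and at 2.0 and 2.81 CPM in the controls. The groups did not overlap, and the gene was 3.2-fold higher (log2 fold change 1.68 ± 0.27 SE, adjusted p = 0.00727). Its call held with each library left out, narrowly so without the first control (adjusted p = 0.0484). Ccne2 overlaps Ints8, which fell, on the other strand, and the counting is not stated to use strand, so reads of the overlap cannot be assigned with certainty.

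Ccnd2, a D-type cyclin of neural progenitors and glia (chromosome 6, 127075797 to 127101066, minus strand, mm9), was at 69.4 and 62.6 CPM in the knockouts and at 98.2 and 104 CPM in the controls. Both knockouts lay below both controls, by 1.53-fold (log2 fold change -0.61 ± 0.10, adjusted p = 0.00846), and the call was lost without the second control (adjusted p = 0.0701). For each of the other D-type cyclins, 1 knockout lay between the controls and 1 above them. Ccnd1 was at 61.4 and 43.2 CPM in the knockouts and at 35.9 and 45.7 CPM in the controls, and did not pass (0.36 ± 0.19 on the log2 scale, adjusted p = 0.221). Without the second knockout library, which had the lower value, it did (log2 fold change 0.60, adjusted p = 0.0356). Ccnd3 was at 24.2 and 28.2 CPM in the knockouts and at 23.2 and 24.4 CPM in the controls (adjusted p = 0.492).

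Ccne1, the second cyclin E, was at 22.0 and 17.1 CPM in the knockouts and at 14.1 and 15 CPM in the controls. The groups were separate, but at 0.43 ± 0.16 on the log2 scale the gene missed the threshold (adjusted p = 0.0995); leaving out the second knockout gave 0.0203. Ccna2, the cyclin of S phase and G2, was at 1.08 and 2.23 CPM in the knockouts and at 0.418 and 1.19 CPM in the controls. The groups overlapped, and its log2 fold change of 1 ± 0.55 missed the threshold (adjusted p = 0.231). Ccnb2, a mitotic cyclin, gave 9 and 7 reads in the knockouts and 13 and 13 in the controls (log2 fold change -0.63 ± 0.51, adjusted p = 0.407).

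Per kilobase of exon, the 5 most abundant cell cycle genes in the controls were Ccnd2, Cdk4, E2f3, Ccnd1 and Ccnd3, all of G1 or the G1 to S transition. Ccnd2 led there with a mean of 17.7 CPM per kilobase, followed by Cdk4 at 16.6, E2f3 at 10.7, Ccnd1 at 10.6 and Ccnd3 at 10.6. In the knockouts Ccnd1 stood at 13.7 CPM per kilobase, Cdk4 at 13, and Ccnd2 and Ccnd3 at 11.6 each. The library values of Ccnd1 (16 and 11.3) and Cdk4 (13.5 and 12.5) interleaved in the knockouts, so their order there is within the spread. Cdk6, also of G1, stood far lower, at a control mean of 0.0726 CPM per kilobase. Mitotic genes ranged widely in the controls, with means of 2.48 CPM per kilobase for Mad2l1, 0.883 for Aurka, 0.0793 for Cdk1 and 0.00363 for Ccnb1. Ccnb1 gave only 0 and 1 reads in the controls, a mean of 0.0153 CPM. This lies under the level that a count of 0 allows, so its value is not a measured level.

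Of the CDKs, none of the 3 that could be tested passed. Cdk4, the partner of D-type cyclins, was at 43.9 and 40.5 CPM in the knockouts and at 54.5 and 53.3 CPM in the controls. The knockouts lay below both controls, just outside the threshold (log2 fold change -0.35 ± 0.11, adjusted p = 0.0528). Cdk4 passed without the first knockout library (adjusted p = 0.0201) and with the older dispersion estimate of edgeR (0.0498), and its adjusted p reached 0.28 elsewhere. Cdk6, its relative, gave 15 and 11 reads in the knockouts and 12 and 6 in the controls (adjusted p = 0.468), and Cdk2, the partner of cyclin E, differed by 0.07 ± 0.24 on the log2 scale (adjusted p = 0.86), at 2.76 and 2.59 CPM in the knockouts and 2.72 and 2.39 CPM in the controls.

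In the E2F and retinoblastoma family, E2f1 rose and the other 3 genes did not pass. E2f1, an activating factor of the G1 to S transition (chromosome 2, 154385143 to 154395628, minus strand, mm9), was at 12.4 and 12.5 CPM in the knockouts and at 7.97 and 7.22 CPM in the controls. It was 1.64-fold higher (log2 fold change 0.72 ± 0.16, adjusted p = 0.0206), with adjusted p = 0.105 when the first control was left out and 0.169 for the second. E2f3, also an activator, was at 53.3 and 54.7 CPM in the knockouts and at 54.8 and 48.1 CPM in the controls (log2 fold change 0.07 ± 0.11, adjusted p = 0.686). Rb1, which encodes the retinoblastoma protein, was at 35.2 and 44.0 CPM in the knockouts and at 34.3 and 32.6 CPM in the controls, and passed only without the first knockout library (adjusted p = 0.0273, against 0.242 with all 4 libraries). Rbl1, which encodes its relative p107, gave 34 and 40 reads in the knockouts and 45 and 84 in the controls (adjusted p = 0.232).

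Among the 9 genes of replication licensing and the fork, Mcm6, Mcm7 and Pcna rose, none fell and 6 did not pass. Mcm6, a subunit of the hexameric MCM helicase (chromosome 1, 130228168 to 130256233, minus strand, mm9), was at 20.2 and 24.1 CPM in the knockouts and at 4.66 and 7.52 CPM in the controls. Both knockouts were well above both controls, by 3.63-fold (log2 fold change 1.86 ± 0.23, adjusted p = 0.00365), and the log2 fold change stayed between 1.56 and 2.24 with each library left out, always past the threshold. Mcm7 (chromosome 5, 138605811 to 138613650, minus strand, mm9) was at 9.82 and 10.5 CPM in the knockouts and at 6.75 and 6.18 CPM in the controls, 1.57-fold higher (log2 fold change 0.65 ± 0.17, adjusted p = 0.0333). This call was lost without the first (adjusted p = 0.151) or the second control (0.233), and Mcm7 shares positions with Ap4m1 and Cops6 on the other strand and with 3 microRNA genes on its own.

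The MCM subunits assemble into a single ring, but only Mcm6 and Mcm7 of its 6 subunits passed. Mcm4 was at 19.4 and 21.6 CPM in the knockouts and at 14.9 and 15.5 CPM in the controls, separate groups that missed the threshold (0.43 ± 0.14 on the log2 scale, adjusted p = 0.0622); leaving out the first knockout gave 0.0204. Mcm2 was at 7.75 and 11.1 CPM in the knockouts and at 7.41 and 8.69 CPM in the controls. Mcm3 was at 6.81 and 4.93 CPM in the knockouts and at 5.79 and 7.77 CPM in the controls, and Mcm5 at 8.91 and 5.6 CPM in the knockouts and at 7.97 and 8.53 CPM in the controls. All 3 overlapped between the groups, with log2 fold changes of 0.21, -0.19 and -0.17 and adjusted p of 0.511, 0.59 and 0.641. On the per-kilobase scale Mcm6 averaged 5.07 CPM per kilobase in the knockouts and 1.40 in the controls, while Mcm3 averaged 1.96 in the knockouts and 2.27 in the controls.

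Pcna, the sliding clamp of DNA polymerases, which also serves DNA repair (chromosome 2, 132074898 to 132079050, minus strand, mm9), was at 19.6 and 20.2 CPM in the knockouts and at 12.1 and 13.6 CPM in the controls. It was 1.55-fold higher (log2 fold change 0.63 ± 0.14, adjusted p = 0.0212), with adjusted p = 0.17 when the first control was left out and 0.1 for the second. Pcna has copies elsewhere in the genome: of the windows of 50 bases in its transcript that occur in the genome, 50.7% occur once, so the counted reads come from part of the gene. The loading factors Cdc6, at 23 and 21 reads in the knockouts and 28 and 28 in the controls, and Cdt1, at 99 and 98 reads in the knockouts and 86 and 79 in the controls, did not pass (adjusted p of 0.609 and 0.374).

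The promoters of Mcm6 and Mcm7 are shown because, of the 9 promoters on record for rising genes, these hold an exact E2F site (TTTCGCGC or TTTGGCGC, either strand). RefSeq promoters, from 250 bases before to 50 after the start on record (GRCm38.p6), were matched for 37 of the 47 genes, some with several. For E2f1 the window on record lies inside the gene as annotated in GENCODE. The bases before its annotated start were therefore not searched. The rising gene Ccne2 had no promoter on record and was not searched. Such a site was in 7 of 40 cell cycle promoters (17.5%) and in 0.813% of all 32851 promoters; among promoters of tested genes that did not pass it was in 4 of 28 (14.3%). Capitals mark E2F sites and, in Mcm7 at -173, the letters TTCGAA of the cell cycle homology region (CHR). In Mcm6 (chr1:128359656-128359955, minus strand) sites start at -110, -106 and -47 from the gene start, and the sites at -110 and -106 overlap on opposite strands; in Mcm7 (the promoter of its 2 that holds one, chr5:138171834-138172133, minus strand) the site starts at 17.
Mcm6: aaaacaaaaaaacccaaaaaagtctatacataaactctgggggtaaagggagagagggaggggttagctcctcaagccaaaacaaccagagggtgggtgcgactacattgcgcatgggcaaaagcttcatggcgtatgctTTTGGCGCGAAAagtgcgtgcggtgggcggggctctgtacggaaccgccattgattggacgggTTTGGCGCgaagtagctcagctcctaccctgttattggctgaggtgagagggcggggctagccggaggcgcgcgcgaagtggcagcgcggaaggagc
Mcm7: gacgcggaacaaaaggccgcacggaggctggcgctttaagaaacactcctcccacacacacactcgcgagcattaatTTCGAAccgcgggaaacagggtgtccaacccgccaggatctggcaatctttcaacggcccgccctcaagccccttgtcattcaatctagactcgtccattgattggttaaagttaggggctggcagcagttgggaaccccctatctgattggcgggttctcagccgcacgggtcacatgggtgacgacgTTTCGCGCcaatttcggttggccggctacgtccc

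In deoxynucleotide synthesis, Rrm2 rose and Rrm1 and Tyms did not pass. Rrm2 encodes the small subunit of ribonucleotide reductase, which is made mainly in S phase (chromosome 12, 25393106 to 25399011, plus strand, mm9), and gave 61 and 87 reads in the knockouts and 20 and 13 in the controls. At 1.74 and 3.08 CPM in the knockouts and 0.597 and 0.398 CPM in the controls, it was 4.7-fold higher (log2 fold change 2.23 ± 0.45, adjusted p = 0.0151). Leaving out the first control gave an adjusted p of 0.0557, and leaving out the second 0.0952. Rrm1, the large subunit, was at 24.0 and 21.7 CPM in the knockouts and at 20.9 and 18.8 CPM in the controls (log2 fold change 0.21 ± 0.13, adjusted p = 0.303). Tyms, thymidylate synthase, gave 70 and 48 reads in the knockouts and 42 and 75 in the controls, with overlapping groups (adjusted p = 0.904).

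**Figure D2:**
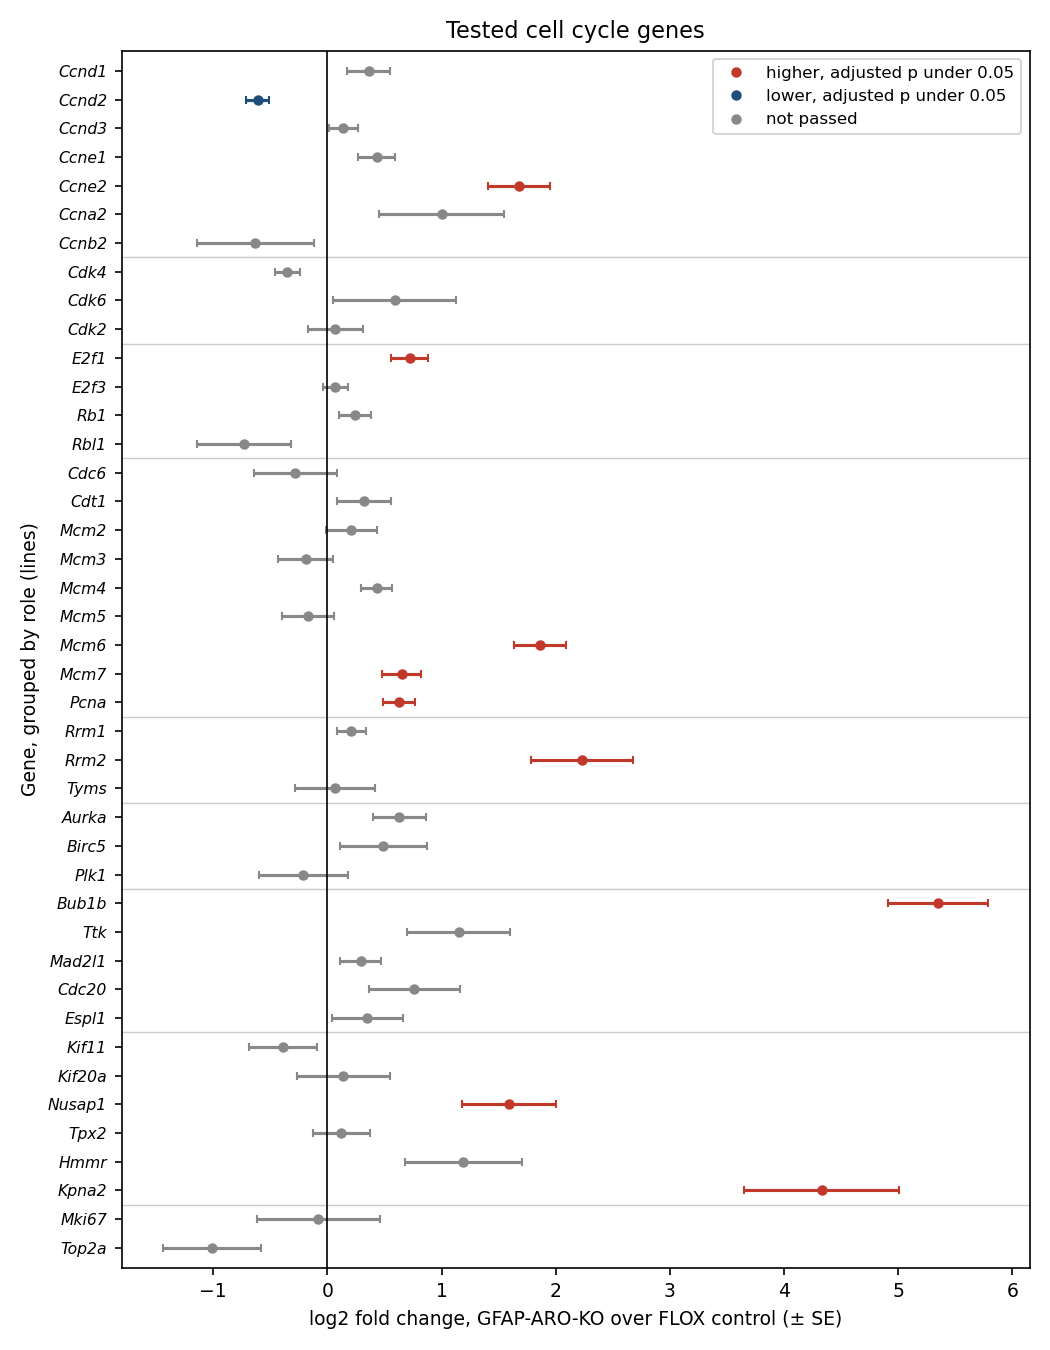
Log2 fold changes (GFAP-ARO-KO over FLOX control, with standard errors) of the 42 tested cell cycle genes, in the order cyclins, CDKs, E2F and retinoblastoma family, replication, deoxynucleotide synthesis, mitotic kinases, checkpoint and anaphase, spindle proteins, and Mki67 with Top2a. Bub1b at 5.35 and Kpna2 at 4.33 stand to the right of the other genes, and the single falling call is Ccnd2 at -0.61.

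Of the spindle checkpoint and anaphase genes, Bub1b rose, 4 did not pass and Bub1 could not be tested. Bub1b encodes BubR1, a subunit of the mitotic checkpoint complex that restrains the anaphase-promoting complex (chromosome 2, 118423947 to 118467328, plus strand, mm9). It gave 186 and 210 reads in the knockouts and 4 and 6 in the controls, or 5.30 and 7.44 CPM in the knockouts and 0.119 and 0.184 CPM in the controls. It was 40.7-fold higher (log2 fold change 5.35 ± 0.44, adjusted p = 0.00108), past the threshold under all 12 alternatives, with log2 fold changes from 5.09 to 5.68. All of its transcript windows of 50 bases that occur in the genome occur once (100%), and no annotated gene overlaps it.

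The partners of Bub1b did not show differences of this size. Ttk, the kinase Mps1 that starts the checkpoint signal, gave 28 and 17 reads in the knockouts and 11 and 10 in the controls (log2 fold change 1.15 ± 0.45, adjusted p = 0.108). Mad2l1, which encodes the checkpoint protein Mad2, was at 6.38 and 7.02 CPM in the knockouts and at 5.23 and 5.69 CPM in the controls (log2 fold change 0.29 ± 0.18, adjusted p = 0.291). Cdc20, the activator of the anaphase-promoting complex that the checkpoint inhibits, gave 30 and 33 reads in the knockouts and 23 and 16 in the controls (log2 fold change 0.76 ± 0.40, adjusted p = 0.21). All 4 genes of this group that did not pass, including Espl1 (separase, 56 and 36 reads in the knockouts and 41 and 34 in the controls, adjusted p = 0.453), had both knockouts above both controls. Such separation is common here, with both knockouts above for 32.0% of all tested genes and below for 32.8%. Bub1, the kinase related to Bub1b, gave 13 and 3 reads in the knockouts and 1 and 3 in the controls, a ratio of 4.18 with an exact 95% counting interval of 1.35 to 17.2 that leaves out the spread between libraries.

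Among the spindle proteins, Kpna2 and Nusap1 rose and 4 did not pass. Kpna2 encodes importin alpha 1, a nuclear import receptor that also holds spindle assembly factors such as Tpx2 (chromosome 11, 106849943 to 106860855, minus strand, mm9). It gave 62 and 39 reads in the knockouts and 5 and 0 in the controls, 20.1-fold higher in the fit (log2 fold change 4.33 ± 0.68, adjusted p = 0.0064). The fitted log2 fold change was 8.67 without the first control, where the remaining control had 0 reads, and 3.38 without the second. The summed reads gave a ratio of 21.1 with an exact 95% counting interval of 8.75 to 66.4. Kpna2 has near-identical copies: 8.92% of its transcript windows that occur in the genome occur once, 177 windows in all, and reads that align at several places were not counted, so its values rest on a small part of the gene and are uncertain.

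Nusap1, a protein that bundles spindle microtubules (chromosome 2, 119444034 to 119476980, plus strand, mm9), gave 40 and 41 reads in the knockouts and 11 and 17 in the controls. It was 3.01-fold higher (log2 fold change 1.59 ± 0.41, adjusted p = 0.0324), but not past the threshold with DESeq2 (0.104), nor without the second knockout (0.0736), the first control (0.211) or the second control (0.114). Nusap1 overlaps Oip5, which also rose, on the other strand. Hmmr, which encodes the hyaluronan-mediated motility receptor of the spindle, gave 16 and 17 reads in the knockouts and 7 and 8 in the controls (log2 fold change 1.19 ± 0.51, adjusted p = 0.135). The kinesin Kif11, which pushes spindle poles apart, was at 1.14 and 1.10 CPM in the knockouts and at 1.34 and 1.59 CPM in the controls (adjusted p = 0.398), with both knockouts below. Kif20a, a kinesin of cytokinesis, gave 21 and 15 reads in the knockouts and 17 and 17 in the controls (adjusted p = 0.83). Tpx2, a spindle assembly factor, gave 92 and 62 reads in the knockouts and 75 and 73 in the controls (adjusted p = 0.771).

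The promoters of Bub1b (chr2:118597961-118598260, plus strand) and Kpna2 (chr11:106999476-106999775, minus strand) are shown as those of the most strongly changed genes. Capitals mark the CHR letters TTTGAA or TTCGAA on either strand, at -188 and 41 in Bub1b and at -35, on the opposite strand, in Kpna2. These letters were in 17 of 40 cell cycle promoters (42.5%), in 19.2% of all promoters, in 3 of 9 promoters of rising genes and in 12 of 28 of genes that did not pass. The CCAAT box, searched on both strands, was in 67.5% of cell cycle promoters and 37.4% of all promoters.
Bub1b: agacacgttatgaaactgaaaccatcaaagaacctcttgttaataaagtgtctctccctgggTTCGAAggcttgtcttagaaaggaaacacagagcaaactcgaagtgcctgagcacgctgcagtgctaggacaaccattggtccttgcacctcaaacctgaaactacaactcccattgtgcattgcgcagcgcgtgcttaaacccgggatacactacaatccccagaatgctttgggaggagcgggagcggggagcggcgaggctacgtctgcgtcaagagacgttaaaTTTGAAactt
Kpna2: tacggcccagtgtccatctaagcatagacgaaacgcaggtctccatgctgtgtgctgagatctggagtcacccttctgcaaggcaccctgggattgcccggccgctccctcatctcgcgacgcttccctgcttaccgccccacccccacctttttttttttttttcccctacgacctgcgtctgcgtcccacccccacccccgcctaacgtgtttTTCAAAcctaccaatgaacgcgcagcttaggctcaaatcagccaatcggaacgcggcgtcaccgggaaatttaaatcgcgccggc

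None of the 3 tested mitotic kinases and chromosomal passengers passed. Aurka, the centrosomal Aurora kinase, was at 3.53 and 3.40 CPM in the knockouts and at 2.24 and 2.23 CPM in the controls. The groups were separate, with 0.63 ± 0.23 on the log2 scale (adjusted p = 0.0898). Birc5, which encodes survivin, a subunit of the chromosomal passenger complex, gave 26 and 25 reads in the knockouts and 20 and 18 in the controls (adjusted p = 0.394). Plk1, Polo-like kinase, gave 22 and 29 reads in the knockouts and 33 and 29 in the controls (adjusted p = 0.726). Aurkb, the passenger Aurora kinase, and the mitotic kinase Pbk gave 2 to 12 reads in each library and could not be tested.

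Mki67, a chromosome surface protein of all dividing cells, gave 32 and 44 reads in the knockouts and 21 and 63 in the controls. The controls lay on both sides of the knockouts (log2 fold change -0.08 ± 0.54, adjusted p = 0.938). Top2a, the DNA topoisomerase of dividing cells, gave 28 and 13 reads in the knockouts and 33 and 53 in the controls, with both knockouts below (log2 fold change -1.01 ± 0.43, adjusted p = 0.137). Cdk1, the mitotic CDK, gave 10 and 7 reads in the knockouts and 4 and 14 in the controls, a ratio of 0.987 with a counting interval of 0.478 to 2.03. Ccnb1, its cyclin, gave 2 and 6 reads in the knockouts and 0 and 1 in the controls, a ratio of 8.36 with an interval of 1.12 to 371. Of the Ccnb1 transcript windows of 50 bases that occur in the genome, 42.9% occur once. The counted reads of Ccnb1 thus come from part of the gene. For Mki67, Ccna2 and Cdk1 the second control had at least as many reads as both knockouts or lay between them, whereas the first control was lowest, so the controls differed from each other by more than the genotype means of Mki67 and Cdk1.

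**Figure D3:**
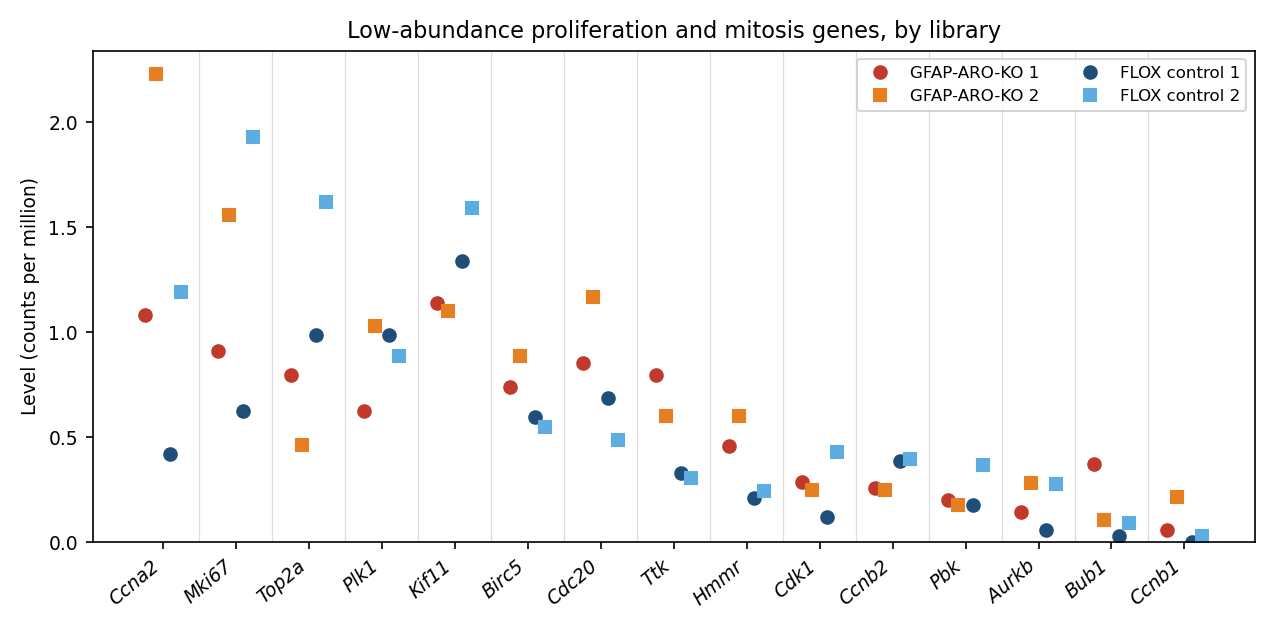
Levels in CPM (linear axis) of 15 low-abundance proliferation and mitosis genes, 1 point for each library. The highest value is 2.23 CPM (Ccna2 in GFAP-ARO-KO 2). For Mki67, Ccna2, Plk1, Cdk1, Pbk and Aurkb the GFAP-ARO-KO and FLOX control points overlap.

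The 10 called genes lie on 7 chromosomes. Bub1b, Nusap1, Pcna and E2f1 are on chromosome 2, which carries 8 of the 47 genes, and on which 18.6% of 1182 tested genes passed, close to the share over all genes. Within 500 kb of Bub1b, 3 of 21 tested genes rose and 1 fell, and within 500 kb of Mcm6 none of 8 rose and 2 fell. Near E2f1, none of 11 passed. Within the same distance of Mcm7, 5 of 24 rose and 6 fell, and of Nusap1, 5 of 25 rose and 4 fell. Near Kpna2, 2 of 13 rose and 0 fell, near Pcna 2 of 11 rose and 2 fell, and near Ccnd2 2 of 11 rose and 1 fell. Near Ccne2, 1 of 8 rose and 2 fell, and near Rrm2 1 of 7 rose and 0 fell. Over all tested genes 9.39% rose and 11.0% fell.

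Other genes of the cell cycle, 144 in all, of which 143 were in the files and 134 could be tested, gave 27 rises and 8 falls. Over all tested genes 9.39% rose and 11.0% fell, shares to set beside this count and those of the lists that follow. Of 54 tested S phase genes, 12 rose, 5 fell and 37 did not pass. Mcm8, a helicase relative of the MCM ring, was at 10.8 and 9.78 CPM in the knockouts and at 4.09 and 3.73 CPM in the controls (2.64-fold higher, adjusted p = 0.00405). Pole, the catalytic subunit of DNA polymerase epsilon, rose 3.3-fold (adjusted p = 0.00665, and 0.0557 without the first control), and Blm, the Bloom helicase, rose 3.33-fold (adjusted p = 0.00638). Replication genes also fell: Pola1, the catalytic subunit of DNA polymerase alpha, was at 3.56 and 3.79 CPM in the knockouts and at 7.71 and 8.41 CPM in the controls (-1.13 on the log2 scale, adjusted p = 0.00836; 0.0731 when the second control was left out). Dtl, the part of a ubiquitin ligase that destroys Cdt1, was at -1.22 on the log2 scale (adjusted p = 0.0277) and Wdr76 at -1.13 (adjusted p = 0.025), both not past the threshold without either control.

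Of 57 tested genes of G2 and mitosis, 10 rose, 2 fell and 45 did not pass. Pttg1, securin, which holds separase inactive until anaphase (mm9 chromosome 11, minus strand, 43233752 to 43239753), gave 784 and 751 reads in the knockouts and 10 and 15 in the controls. It was 64-fold higher (log2 fold change 6 ± 0.27, adjusted p = 0.000243), the largest fold among all cell cycle genes tested here, and passed under all 12 alternatives. Espl1, which encodes separase, did not pass. Cenpa, the histone variant of centromeres, rose 4.77-fold (adjusted p = 0.00865, and 0.0522 without the second control), and Ncapd2, a condensin subunit, rose 1.68-fold (adjusted p = 0.00861, and 0.0864 without the second control). Anln, anillin of the cytokinetic ring, which oligodendrocytes also express, fell by 0.62 on the log2 scale (adjusted p = 0.0122), not past the threshold without either control. Kif18a, a mitotic kinesin, fell by 0.96 (adjusted p = 0.0466), a call kept under 3 of 12 alternatives.

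Of 17 tested transcription factors and cofactors of the cycle, 3 rose, 1 fell and 13 did not pass. Tfdp2, the dimer partner of E2F factors, rose 1.52-fold (adjusted p = 0.0143), and Lin9 and Lin54, subunits of the MuvB complex that binds CHR elements, rose 1.64-fold and 1.41-fold (adjusted p of 0.0352 and 0.0383). Myc was at 6.12 and 6.38 CPM in the knockouts and at 12 and 10.3 CPM in the controls (log2 fold change -0.84, adjusted p = 0.0168). Each of these 4 calls was lost when either control was left out, that of Lin9 also with DESeq2 (adjusted p = 0.0696) and that of Lin54 also without the second knockout (0.0668). Over all 144 genes the rises numbered 6 without the first control and 5 without the second, and the falls 1 and 0; leaving out the first and the second knockout gave 37 and 21 rises and 15 and 4 falls.

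Of 6 tested CDK inhibitors, 2 rose, none fell and 4 did not pass. Cdkn1a, which encodes p21, an inhibitor of cyclin E and Cdk2 that also binds the product of Pcna, was at 113 and 115 CPM in the knockouts and at 26.9 and 14.9 CPM in the controls (2.44 on the log2 scale, adjusted p = 0.00377; 0.105 when the first knockout was left out and 0.0535 for the second). Cdkn1c, which encodes p57, gave 100 and 121 reads in the knockouts and 47 and 58 in the controls (log2 fold change 1.15, adjusted p = 0.0378, not past the threshold without either control or the second knockout). Cdkn1b (p27; adjusted p = 0.071), Cdkn2b (0.322), Cdkn2c (0.434) and Cdkn2d (0.113, with few unique windows) did not pass, and Cdkn2a gave 0 and 2 reads in the knockouts and 7 and 4 in the controls. The transcripts of cyclin E2, E2f1 and p21 were all higher in the knockouts.

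Markers of cell types that can divide moved in different directions between the genotypes. In RNA from whole tissue, fewer cells of a type and less RNA per cell cannot be told apart. Of 14 microglia and macrophage markers, 11 fell and none rose, with a summed level of 274 and 297 CPM in the knockouts and 528 and 599 CPM in the controls. Of 8 markers of oligodendrocyte precursors, 5 fell and none rose (287 and 265 CPM in the knockouts, 391 and 416 CPM in the controls). Olig1, the most abundant, was 2.08-fold lower, and C1ql1, as with Dcx and Eomes named after its values were seen, was 3.19-fold lower. Pdgfra, Neu4 and Cspg4, also named after their values were seen, did not pass. Pdgfra was at 94.7 and 89.8 CPM in the knockouts and at 70 and 84.5 CPM in the controls. Neu4 was at 16.1 and 14 CPM in the knockouts and at 13.1 and 13 CPM in the controls. Cspg4 differed by -0.02 on the log2 scale. Of 8 markers of neural progenitors and neuroblasts, 3 rose and none fell, at 53.5 and 62.8 CPM in the knockouts and 54.3 and 50.9 CPM in the controls. Nes, the most abundant over all 4 libraries, differed by 0.01 ± 0.17 on the log2 scale and did not pass. Dcx, a neuroblast marker close to it in level, was at 15.4 and 20.3 CPM in the knockouts and 14.2 and 13.2 CPM in the controls, with both knockouts above (adjusted p = 0.161). Eomes, a factor of dividing intermediate progenitors named after its values were seen, gave 14 and 9 reads in the knockouts and 0 and 1 in the controls. It passed (adjusted p = 0.021), but not without either control. Only the knockouts reached the minimum count, so Eomes entered the test through that group and had to differ. Its call, counted among the 3 rises, is therefore not evidence for a change in progenitors.

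Markers of tissue next to the hippocampus were uneven between the knockout libraries. The 10 meningeal markers summed to 116 and 476 CPM in the knockouts and 106 and 153 CPM in the controls (0 passed), and the 6 mural markers to 85.5 and 284 CPM in the knockouts and 61.0 and 68.1 CPM in the controls (1 rose). Of 6 tested choroid plexus markers 3 rose (49.9 and 65.0 CPM in the knockouts, 34.4 and 36.7 CPM in the controls), and of 10 endothelial markers 2 rose and 1 fell (210 and 274 CPM in the knockouts, 196 and 205 CPM in the controls). Leukocyte markers were too low to test, with sums of 0.826 and 1.17 CPM in the knockouts and 1.19 and 1.38 CPM in the controls and Cd3g at 0 in all libraries. Of 8 astrocyte markers 1 rose and 2 fell (4350 and 4630 CPM in the knockouts, 5400 and 5700 CPM in the controls), and of 7 neuronal markers none passed (11200 and 11900 CPM in the knockouts, 11400 and 12200 CPM in the controls). Of 4 markers of hippocampal fields 2 rose (543 and 572 CPM in the knockouts, 472 and 503 CPM in the controls). Among the most abundant markers of these lists, Igf2 of the meninges was at 27.7 and 225 CPM in the knockouts and 25.8 and 37 CPM in the controls, and Acta2 of mural cells at 14.9 and 114 CPM in the knockouts and 8.18 and 6.82 CPM in the controls. Those of endothelium (Slco1a4), choroid plexus (Kl) and astrocytes (Slc1a2) were at 36.1 and 54.6, 32.9 and 31.2, and 2500 and 2680 CPM in the knockouts, and at 31.4 and 33.1, 26 and 30.3, and 2810 and 2980 CPM in the controls. The part of these cell types in the values of the cell cycle genes was not tested. With the second knockout library left out, 8 of the 9 rises and the fall of Ccnd2 passed the threshold, and Nusap1 did not (adjusted p = 0.0736).

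**Figure D4:**
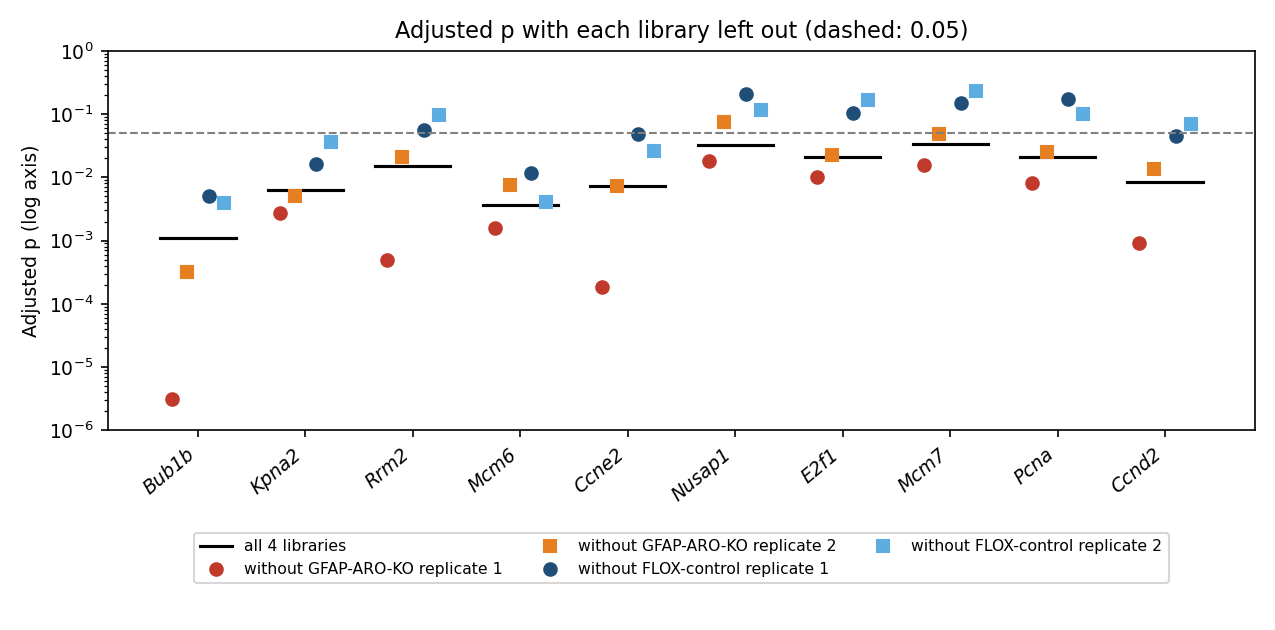
Adjusted p (log axis) of the 10 called cell cycle genes with all 4 libraries (horizontal lines) and with each library left out (points); the dashed line is the threshold of 0.05. Bub1b, Kpna2, Mcm6 and Ccne2 stay under it throughout, while E2f1, Mcm7, Pcna, Rrm2 and Nusap1 pass above it without either control.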

How the data were processed

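RNA of whole hippocampus was measured in 4 libraries. The deposited files hold raw read counts per gene symbol, made by the authors from 50 bp single-end reads of total RNA libraries, per the labels' protocols, with bcl2fastq, TopHat2 2.0.8b, mm9 and HTSeq, per the submitters' processing notes. For the strand setting, the annotation and the version of HTSeq, nothing was given in the sources used here. HTSeq's 5 summary rows, 45.17% to 47.3% of entries, mostly reads that align at several places (35.73% to 37.35%), stayed out of library sizes and tests.

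Genotypes were compared with edgeR 4.0.16 in R 4.3.3 (TMM scaling, filterByExpr with a minimum count of 10 and minimum total of 15, glmQLFit with robust estimation and legacy=FALSE, glmQLFTest), with Benjamini-Hochberg adjustment over all 15011 tested genes and a threshold of 0.05. The SE of a log2 fold change was its size over the root of the F statistic. The steps were tested on simulated counts. Libraries of a genotype differed by more than counting noise (a chi-square of 26 per degree of freedom for the knockouts and 13.8 for the controls). A floor of 3 counts gave the level that 0 reads allow.

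Positions, exon lengths and windows of 50 bases come from NCBIM37, the assembly behind mm9, with GENCODE vM1; promoters are RefSeq's on GRCm38.p6. Named are all 47 cell cycle genes; of other cell cycle lists, up to 3 called genes per list and direction with the smallest p and all CDK inhibitors; of cell type lists, the most abundant tested marker, 1 of which is not reported here. Members, lists and motifs were chosen with earlier results of these data known. Also run were scaling by RLE or upper quartile, no filter or at least 1 CPM in 2 libraries, legacy=TRUE, limma-voom (limma 3.58.1), DESeq2 1.42.0, a replicate block, and each library left out.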

Additional observations from a re-analysis of the deposited data

How the results depend on the processing

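Of the recomputed log2 fold changes of the tested cell cycle genes, 475 kept their side of the threshold. Of the others, 13 calls were lost and 6 were gained, and no called value reversed. Among the 475, some genes that did not pass changed direction. With a library left out, Mki67 ranged from -0.66 to 0.94 and Tyms from -0.3 to 0.56. With RLE or upper-quartile scaling, no filter, the stricter filter, limma-voom or DESeq2, 8 or 9 of the genes rose and 1 fell; with legacy=TRUE 9 rose and 2 fell, the added one being Cdk4. With a library left out, rises ranged from 4 to 11 and falls from 0 to 2, and among the other cell cycle genes rises ranged from 5 to 37 and falls from 0 to 15, while the calls over all genes ranged from 813 to 4821. In these fits the lone library of a group is assumed to vary like the other pair. With the replicate number as a block, 9 rose and 1 fell, with 3194 calls over all genes; the deviations of same-numbered libraries had a correlation of -0.0057, so the numbers do not pair the samples. Depth limits the genes under about 10 reads per library, of which Ccnb1, Cdk1, Aurkb, Pbk and Bub1 could not be tested.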

Other observations

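Of 5 tested kinases and phosphatases that set the phosphorylation of Cdk1, Wee1 and Cdc25a rose and Cdc25b (adjusted p = 0.0706), Cdc25c (0.83) and Pkmyt1 (0.777) did not pass; these genes and Melk were named after their values were seen. Wee1, the kinase that holds Cdk1 inactive, gave 855 and 992 reads in the knockouts and 547 and 625 in the controls (log2 fold change 0.74 ± 0.19, adjusted p = 0.036). Cdc25a, the phosphatase that opposes it, gave 377 and 313 reads in the knockouts and 244 and 209 in the controls (log2 fold change 0.67 ± 0.17, adjusted p = 0.0294). Melk, a kinase of dividing cells, gave 27 and 16 reads in the knockouts and 2 and 3 in the controls (log2 fold change 3.10 ± 0.61, adjusted p = 0.0136). Only the knockouts reached the minimum count, so Melk entered the test through that group and had to differ. Wee1, Cdc25a and Melk were higher in both knockouts than in both controls, and all 3 were lost without the first control (adjusted p of 0.184, 0.122 and 0.117) and without the second (0.104, 0.225 and 0.0984), Wee1 also without the second knockout (0.0594). Among progenitor markers, Neurog2 gave 41 and 35 reads in the knockouts and 12 and 17 in the controls (adjusted p = 0.0368), and Igfbpl1 gave 65 and 37 reads in the knockouts and 18 and 15 in the controls (adjusted p = 0.0223); both were lost with DESeq2 (0.155 and 0.0563) and without either control, Neurog2 also without the second knockout (0.07).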
